A study of Mus musculus with 48 samples.

Results

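SETD1A occupancy was mapped by ChIP-seq in wildtype mouse embryonic stem cells and set against the histone mark H3K4me3 of the same cells. The members are the 20956 SETD1A binding events and the 48716 H3K4me3 domains that lie on the standard chromosomes, of 20961 events and 48733 domains listed by the authors. They come from 4 of the 48 libraries of the series, 2 for SETD1A and 2 for H3K4me3. A domain counted as carrying SETD1A when the point position of an event lay within 500 bp of it, which held for 13036 domains and left 35680 without an event.

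The wildtype cells carry the genotype Ainv15(iCre), an embryonic stem cell line with a Cre gene under doxycycline control, and were kept for 3 days in medium with leukaemia inhibitory factor (LIF) and without doxycycline or the 2-inhibitor cocktail (-2i+LIF). The same wildtype line and culture gave the libraries of RNA polymerase II phosphorylated at serine 5 of its tail (POL2 5SP), of the pausing factor NELF, of the corepressors SIN3A and CHD4, and of the marks H3K27ac and H3K27me3. H3K4me3 was also measured in Ainv15(iZbtb11-HA Zbtb11KO), Ainv15(iZfp131-HA Zfp131KO) and Ainv15(iZbtb11-HA iZfp131-V5 Zbtb11KO Zfp131KO) cells, in the same culture without doxycycline, and H3K27ac in the lines of both single knockouts. Tagged ZBTB11 and ZFP131 were mapped with an HA antibody in their single knockout lines after 3 days with doxycycline in +2i+LIF medium, so their culture differs from that of SETD1A. Each genotype is 1 line, and the labels do not say whether the libraries of a group came from separate cultures. SETD1A was measured in wildtype cells only among the libraries used here.

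The SETD1A libraries held 24.4 M and 22.1 M reads (M, 1e6), of which 10.1% and 10.7% lay in events, and the control held 45.3 M. The depth of the H3K4me3 libraries is unknown here, because the domain list gives reads per domain and no library total. Each group was deposited as 1 list pooled over its libraries. No spread between libraries could therefore be computed and no test was run on the lists, and the intervals given with shares are Wilson 95% intervals that cover counting error only. The weakest listed event had 40 reads, so a region without an event may still hold SETD1A below that level. All 8 pluripotency markers had an H3K4me3 domain within 1 kb of the gene start, 7 of them with H3K27ac there. Of 8 fibroblast markers, 6 had H3K4me3, the same number had H3K27me3 and none had H3K27ac, and Col3a1 and Fap had no domain of H3K4me3. Of 6 primitive endoderm markers, 5 had H3K4me3 and H3K27me3, and 2 of these, Sox7 and Pdgfra, also had H3K27ac.

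SETD1A is a catalytic subunit of a COMPASS complex, which places methyl groups on lysine 4 of histone H3, and it shares the core subunits WDR5, RBBP5, ASH2L and DPY30 with the related KMT2 enzymes. The trimethylated form, H3K4me3, marks the starts of active genes and of many silent developmental genes in stem cells. The complex is brought to chromatin in part by CXXC1, a protein that binds unmethylated CpG dinucleotides, and by WDR82, which recognises polymerase phosphorylated at serine 5. In mouse embryonic stem cells Setd1a is needed for survival and proliferation.

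The promoters at the 3 single events with the most SETD1A reads and of 3 genes with dense H3K4me3 and no SETD1A event are printed first, since both kinds carry the mark and differ in the density of CpG dinucleotides. Each runs 5′ to 3′ on the strand of the gene, from 250 bases before to 50 bases after the start, and comes from RefSeq on the assembly GRCm38.p6, the assembly that mm10 names. Capitals mark each CG dinucleotide. The promoters with SETD1A are those of Kmt2a (chr9:44881240-44881539, minus strand, 36 CG), Taf9 (chr13:100651093-100651392, plus strand, 37 CG) and Zfp335 (chr2:164911701-164912000, minus strand, 22 CG). The promoters without it are those of Gm51425 (chr17:17004866-17005165, plus strand, 11 CG), Tars2 (chr3:95754928-95755227, minus strand, 7 CG) and Exosc2 (chr2:31670465-31670764, plus strand, 11 CG).
Kmt2a: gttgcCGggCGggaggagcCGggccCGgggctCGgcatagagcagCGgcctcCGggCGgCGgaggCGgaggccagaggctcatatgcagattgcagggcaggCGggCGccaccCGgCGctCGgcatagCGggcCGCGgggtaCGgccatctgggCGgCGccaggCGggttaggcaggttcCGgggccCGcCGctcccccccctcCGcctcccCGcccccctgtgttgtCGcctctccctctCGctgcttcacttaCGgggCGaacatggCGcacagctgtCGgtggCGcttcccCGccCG
Taf9: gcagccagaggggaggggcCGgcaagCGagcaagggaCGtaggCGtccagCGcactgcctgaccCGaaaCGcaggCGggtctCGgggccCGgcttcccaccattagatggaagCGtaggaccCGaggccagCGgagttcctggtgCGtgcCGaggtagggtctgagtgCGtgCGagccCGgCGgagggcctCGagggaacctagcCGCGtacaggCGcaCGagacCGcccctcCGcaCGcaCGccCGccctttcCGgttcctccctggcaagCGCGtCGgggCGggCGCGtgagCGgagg
Zfp335: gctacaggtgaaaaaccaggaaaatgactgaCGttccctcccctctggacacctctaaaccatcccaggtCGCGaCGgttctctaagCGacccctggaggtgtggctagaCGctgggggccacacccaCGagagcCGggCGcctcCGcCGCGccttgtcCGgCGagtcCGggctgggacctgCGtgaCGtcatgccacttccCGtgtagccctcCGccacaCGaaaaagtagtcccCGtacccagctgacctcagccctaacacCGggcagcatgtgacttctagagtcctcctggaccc
Gm51425: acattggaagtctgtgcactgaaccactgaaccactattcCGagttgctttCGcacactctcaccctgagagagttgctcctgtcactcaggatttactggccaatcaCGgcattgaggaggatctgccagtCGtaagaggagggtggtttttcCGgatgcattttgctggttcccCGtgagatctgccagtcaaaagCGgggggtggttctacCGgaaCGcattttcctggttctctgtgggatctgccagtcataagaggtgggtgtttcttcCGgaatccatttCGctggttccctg
Tars2: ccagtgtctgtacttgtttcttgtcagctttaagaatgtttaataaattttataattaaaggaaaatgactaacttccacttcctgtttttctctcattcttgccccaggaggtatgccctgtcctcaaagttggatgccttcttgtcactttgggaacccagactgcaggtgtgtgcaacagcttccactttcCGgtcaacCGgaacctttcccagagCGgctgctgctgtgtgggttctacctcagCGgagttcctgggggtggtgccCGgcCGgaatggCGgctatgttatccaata
Exosc2: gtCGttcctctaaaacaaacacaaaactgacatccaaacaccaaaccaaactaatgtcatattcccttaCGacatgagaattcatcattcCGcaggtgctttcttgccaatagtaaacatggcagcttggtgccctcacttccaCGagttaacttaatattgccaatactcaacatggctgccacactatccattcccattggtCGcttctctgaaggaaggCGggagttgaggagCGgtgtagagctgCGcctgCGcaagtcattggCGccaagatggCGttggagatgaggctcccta

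In these windows GC made up 75.7%, 72.0% and 63.0% of the bases at Kmt2a, Taf9 and Zfp335, against 52.3%, 48.3% and 48.0% at Gm51425, Tars2 and Exosc2. The GC box GGGCGG occurred at Kmt2a and Taf9, and the cyclic AMP response element TGACGTCA at Zfp335. Among the promoters without SETD1A, CCAAT occurred in all 3, TATAAA at Tars2, the ETS motif CCGGAAG at Gm51425 and the YY1 motif AAGATGGCG at Exosc2. Motifs were searched on both strands, and a match describes the letters only.

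SETD1A lay almost entirely at H3K4me3. Of the 20956 events, 18837 (89.9%, 95% interval 89.5 to 90.3) were within 500 bp of a domain and 18191 (86.8%) inside one, and the events near a domain held 93.7% of all reads assigned to events. Seen from the mark, 26.8% of domains (26.4 to 27.2) carried an event, yet these domains held 81.4% of all H3K4me3 domain reads and 64.3% of the 32.5 Mb of domain length. Most carried 1 event (8245 domains, 63.2%), while 3265 (25.0%) carried 2, 1034 (7.93%) carried 3 and 492 (3.77%) carried 4 or more.

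Domains with SETD1A were wide. Their median width was 1541 bp (quartiles 1013 to 2110), against 125 bp (49 to 444) for domains without an event, a ratio of 12.3, and 75.2% of them were 1 kb or wider, against 7.96% without. A wide domain offers more positions at which an event can fall, so the share with an event was read along width. In 10 width classes of equal number, it stayed between 3.96% and 6.01% over the 5 narrowest, up to 289 bp, was 8.38% from 289 to 495 bp, 19.1% from 495 to 820 bp, 47.7% from 820 to 1286 bp and 76.1% from 1286 to 1867 bp. In the widest class, from 1867 to 9172 bp, 4505 of 4872 domains (92.5%, 91.7 to 93.2) carried SETD1A, with 2.18 events per domain on average. The 11538 domains with an event inside had a median width of 1650 bp, while the 653 and 845 domains whose nearest event was 1 to 250 or 251 to 500 bp away measured 98 and 120 bp. Domains 501 to 750 bp from an event measured 74 bp. Some narrow domains sat beside a broad one: 251 of 1192 domains under 300 bp with an event (21.1%) lay within 1 kb of a domain of at least 1 kb, against 4171 of 23650 without an event (17.6%).

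**Figure D1:**
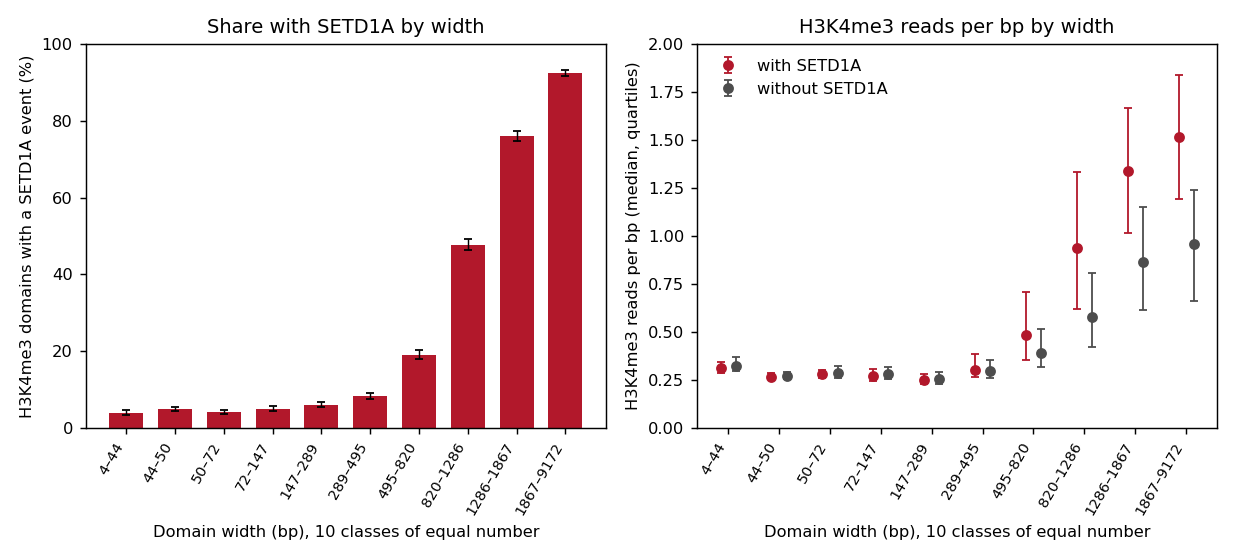
The left panel plots the share of H3K4me3 domains with a SETD1A event (percent, bars from 0, Wilson 95% intervals) by domain width in bp in 10 classes of equal number, and the right panel the H3K4me3 reads per bp (median and quartiles) of domains with SETD1A in red and without in grey. The share is 92.5% in the widest class and 3.96% in the narrowest, and the medians of reads per bp part above 495 bp.

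The density of the mark also differed. Domains with SETD1A held a median of 1.196 H3K4me3 reads per bp (0.648 to 1.61), against 0.300 (0.264 to 0.378) without, a ratio of 3.99. Within the width classes the medians were alike for narrow domains, at 0.251 and 0.256 reads per bp with and without SETD1A from 147 to 289 bp. They were apart for broad ones, at 0.939 with SETD1A and 0.577 without in the class from 820 bp, 1.34 and 0.863 in the class from 1286 bp, and 1.51 and 0.956 in the widest class. Among the 8627 domains of 1000 to 2000 bp, a range chosen after the data were seen so that widths are close, 6048 (70.1%) carried SETD1A. Their median density was 1.282 reads per bp, against 0.742 without, at median widths of 1498.5 and 1275 bp. Sorted into 5 equal classes by density, the share with SETD1A in this range was 39.0%, 57.0%, 73.5%, 85.8% and 95.2% from the sparsest to the densest. Median width rose over the same classes, from 1219 to 1595 bp, so density was not read at a fixed width.

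Over the 13036 domains with an event, the reads assigned to SETD1A had a Spearman correlation of 0.77 with the H3K4me3 reads of the domain, 0.74 with reads per bp and 0.64 with width. The same SETD1A reads had a correlation of 0.70 with the control reads in the domain, 0.80 with NELF event reads, 0.75 with SIN3A event reads and 0.49 with ZBTB11 event reads. These are descriptions across domains of the same pooled libraries, and domain width and the number of reads that a stretch yields enter both sides of each pair. The part of the control reads in the relation was not tested.

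Within broad domains SETD1A took a central place. In 5284 domains of at least 1 kb with a single event inside, 46.7% of events lay in the central 20% of the domain's length and 5.87% in the outer 20% at either end. Around gene starts the events lay downstream. At 12983 genes with an annotated start that no other start adjoins, 5100 had a SETD1A event within 1 kb, and the event with the most reads lay at a median of 151 bp inside the gene (quartiles 89 to 275). It was downstream of the start in 85.2% of those genes. NELF events, in 6971 genes, had a median of 122 bp inside (48 to 180.5) with 78.8% downstream, and SIN3A, in 7061 genes, 122 bp with quartiles from -45 to 246 and 71.6% downstream. ZBTB11, in 4062 genes, had a median of 144.5 bp with quartiles from -29 to 337, a wider spread around the start than that of SETD1A.

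**Figure D2:**
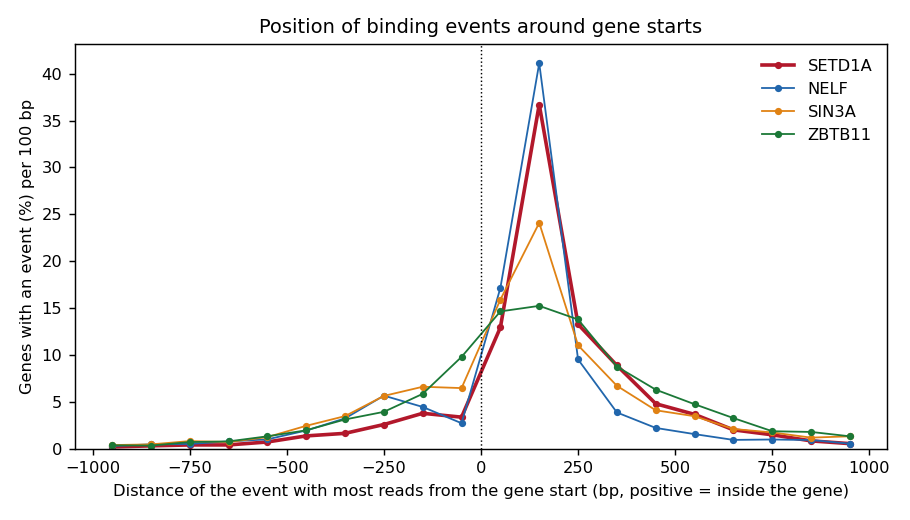
The plot gives, for each target, the percent of genes with an event per 100 bp of distance between the gene start and the event with the most reads (x axis, bp, positive inside the gene). SETD1A and NELF each peak between 100 and 200 bp inside the gene, and ZBTB11 is spread more widely, with medians of 151, 122 and 144.5 bp.

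Most SETD1A events were promoter events. Each event was counted once, in the first class that held it, in the order given here. Of all events 14618 (69.8%) lay within 1 kb of the start of a protein-coding gene. A further 456 (2.18%) lay within 1 kb of a long non-coding RNA start and 3771 (18.0%) elsewhere inside protein-coding genes. Then came 44 within 1 kb of a small RNA gene and 2067 (9.86%) between genes. The 44 leave out events at small RNA genes that fell in an earlier class. By gene, 14217 of 21887 protein-coding genes had H3K4me3 within 1 kb of the start, and 9873 of those (69.4%, 68.7 to 70.2) also had a SETD1A event within 1 kb. Genes with no listed H3K4me3 domain within 1 kb of the start rarely had SETD1A, 69 of 7670 (0.900%), among them Pcgf1 with 102.8 reads. Housekeeping genes such as Hprt and Ywhaz were also without a listed domain there, so absence from the list need not mean absence of the mark. Starts without annotation were set at the gene end with more H3K4me3, so mark and start are not independent for those genes. The H3K4me3 domain of a further 291 genes carried an event more than 1 kb from the start, and 4053 genes with H3K4me3 had no event by either measure. Of 16510 domains at protein-coding starts 59.8% carried SETD1A, and of those of 1 kb or wider 82.7%. Among the 32206 domains elsewhere it was 9.81%, and among the broad ones there 52.8%. Broad domains on the X chromosome carried SETD1A in 206 of 364 cases (56.6%, 51.5 to 61.6), below each autosome, where shares ran between 68.1% on chromosome 13 and 81.9% on chromosome 16. The part of X copy number, of domain width and density and of the read limit of listed events in this was not tested.

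The event with the most reads was at Kmt2a, which encodes the H3K4 methyltransferase MLL1, with 1819.6 SETD1A reads over 12.3 scaled control reads, 185 bp upstream of the start. Its domain there was 1812 bp wide, with 2432 H3K4me3 reads and 3 events. The second, with 1760.5 reads, lay at a shared promoter of Taf9, a subunit of TFIID, Ak6, an adenylate kinase, and Rad17, a loader of the DNA damage checkpoint clamp. Zfp335, a zinc finger transcription factor, had 1607.2 reads over 27.2 of control, and Tardbp, an RNA-binding protein of splicing control, had 1595.4 over 14.0. The median event near H3K4me3 had 125 reads, so these lay far in the upper tail. The next 6 events were at Psmd3, a proteasome subunit (1286.3 reads), Oga, which removes O-GlcNAc from proteins (1282 reads), Polr2l and Tspan4, a polymerase subunit and a tetraspanin (1279.1), Cwc27 and Srek1ip1, a spliceosome-associated isomerase and a splicing regulator's partner (1265.9), Rbm39, a splicing factor (1262.1), and Ncl, the nucleolar protein nucleolin (1204.8). Domains at these 10 events were 1812 to 4541 bp wide and carried 2 to 5 events each.

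The genes of the H3K4 methyltransferases and their partners were themselves occupied. Of the 21 in the list, 20 had H3K4me3 and 18 had a SETD1A event within 1 kb of the start, against 69.4% of all protein-coding genes with the mark. These 20 had broad H3K4me3, of at least 1.641 kb (Cxxc1). Of all domains of 1 kb or wider at protein-coding starts 82.7% carried SETD1A, so their width enters this share. Among the enzymes, events within 1 kb of the start summed to 2150.4 reads at Kmt2a, 1542 at Setd1a itself, 745.9 at Kmt2c, 634.3 at Kmt2d and 310 at Kmt2b. The median over all genes with an event was 223.8 reads, so each of these genes lay above it. Setd1b, the closest relative of Setd1a, had none within 1 kb of the gene end taken as its start, but its domain of 5.53 kb carried events, the nearest 3.06 kb away. Of the shared core subunits, Rbbp5 had 1229.7 reads, Wdr5 493.7 and Dpy30 404.6. Ash2l had 2281 H3K4me3 reads over 1.99 kb and no event at its domain, with the nearest 7.05 kb away.

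Subunits particular to some complexes had between 75.9 and 721.6 reads where an event was listed. Wdr82, which recognises phosphorylated polymerase, had 648.1 reads and Cxxc1, the CpG-binding subunit, 279.6. Hcfc1, a partner of SETD1A and KMT2A complexes, had 627.7, Paxip1 and Pagr1a of the KMT2C and KMT2D complexes 721.6 and 387.9, and Kdm6a, their H3K27 demethylase, 410.5. Bod1 and Bod1l, of which the second works with SETD1A at stalled replication forks in human cells, had 280.8 and 286.4. Psip1 and Men1, which tether KMT2A and KMT2B, had 264.9 and 75.9, the last being the lowest of the 18. Ncoa6 had no H3K4me3 within 1 kb of its start. All 8 genes with H3K4me3 in the list of H3K4 demethylases and related enzymes had an event, led by Kdm5a with 667 reads. So did all 11 genes of the factors studied in the series, among them Zbtb11 with 1359.2 reads and Zfp131 with 184.8. The 8 had at least 1.59 kb of H3K4me3 (Kdm2a) and the 11 at least 1.284 kb (Nelfcd). Of all domains of 1 kb or wider at protein-coding starts 82.7% carried SETD1A.

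**Figure D3:**
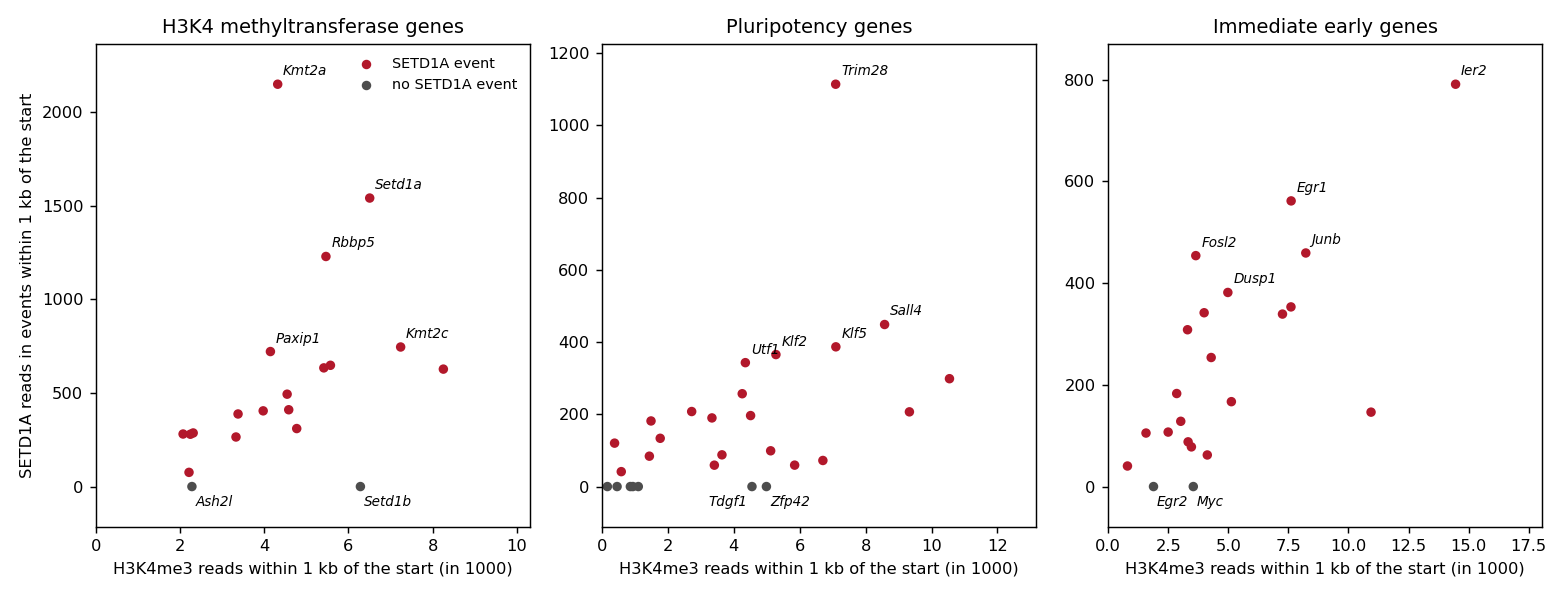
Each point is a gene with H3K4me3 within 1 kb of the start, with its H3K4me3 reads (x axis, in units of 1000) and the SETD1A reads in events within 1 kb (y axis) for H3K4 methyltransferase, pluripotency and immediate early genes. Red points have an event within 1 kb of the start and grey points, drawn at 0, have none there. Kmt2a (2150.4), Trim28 (1113.8) and Ier2 (791) are highest in their lists.

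Pluripotency genes carried the mark at all 28 members and SETD1A at 21 (75%), near the 69.4% of all genes with the mark. With a gene window of 500 bp it was 15 of 28 (53.6%), against 65.7% of all genes. Trim28, a corepressor of retroviral elements that many cell types express, had 1113.8 SETD1A reads. The transcription factor genes Sall4, Klf5, Klf2 and Utf1 followed with 448.6, 386.8, 365.4 and 343. Sox2 had 298.6 reads, Pou5f1 196.5, Esrrb 181.6 and Nanog 59.3, and for Nanog the nearest event lay 682 bp from the start, although its H3K4me3 domains covered 4.47 kb. Tdgf1, a coreceptor of NODAL, had a domain of 4.39 kb with 4551 H3K4me3 reads and no event, the nearest being 55.5 kb from its start. Dppa2, Dppa4, Dppa5a, Prdm14 and Rex2 had H3K4me3 of 163 to 1101 reads and no event either. Zfp42, a marker of naive cells, had none within 1 kb but carried 1 at its domain, 1.19 kb from the start.

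Among immediate early genes, which respond to growth signals within minutes, 20 of 22 carried SETD1A. Ier2 had 791 reads, Egr1 561.6 and Junb 459.2, and Egr3 had 40.4, close to the weakest event listed. Myc and Egr2 had none at their domains of 4.24 and 3.76 kb, with the nearest event 52.7 and 10.3 kb from their starts. Width and SETD1A thus parted at Myc and went together at Ier2, whose H3K4me3 covered 6.25 kb.

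Among gene families taken by name, with at least 10 members with H3K4me3, the 5 highest shares with SETD1A were those of families of general cell functions. All 44 spliceosome genes had an event, with a median of 431.4 SETD1A reads. Mitochondrial ribosomal proteins had 68 of 73, translation initiation factors 47 of 52, nucleoporins 18 of 20 and cytosolic ribosomal proteins 70 of 78. The cytosolic ribosomal proteins had the highest family median among these 5, 742.4 reads, against 223.8 over all genes. Of the 8 members without an event, 3 carried one at the domain farther than 1 kb from the position taken as the start, among them Rps27a and Rpl17. Where no start was annotated, that position is the gene end with more H3K4me3. It can be the wrong end, so these distances are uncertain. Srsf5 and Srsf2, splicing factors of the SR family, had 1782.6 and 1435.7 reads. The next families lay close below, with 89.2% for kinesins and Zbtb factors and 88.9% for Sox factors, against 89.7% for cytosolic ribosomal proteins. With the event sought at the domain, kinesins (94.6%) and Sox factors (94.4%) lay above cytosolic ribosomal proteins (93.6%). The order of the highest families thus depends on the measure. Among the lists of regulators, which are not such families, Polycomb genes had an event at 27 of 28, led by Eed with 1236 reads, and genes of pausing and elongation at 22 of 23, led by Cdk9 with 1109.8 and Supt5 with 1094.8. Ribosomal protein, histone and tRNA genes have near-identical copies, so their reads can be split or lost in alignment and their counts are uncertain.

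The 5 lowest families were clustered protocadherins with 2 of 39 members, keratins with 1 of 18, olfactory receptors with 1 of 14, chemokines and interleukins with 4 of 20 and collagens with 12 of 33. Their domains were narrow, with medians of 667, 421, 261, 680 and 979 bp per gene, against 1649 bp over all genes with H3K4me3. Of the 7 protocadherin genes with at least 1 kb of H3K4me3, 2 carried SETD1A, against 9358 of 11562 genes (80.9%) in that class. Replication-dependent histones were an exception to the narrow width, since 41 of 44 had at least 1 kb and 19 carried an event. Hox genes, silent in stem cells and marked by both H3K4me3 and H3K27me3, had SETD1A at 20 of 36, up to 178.3 reads at Hoxd9 and 157.7 at Hoxc13. A further 4 carried it only at the domain, among them Hoxb7. Of the lineage lists, 8 of 12 primitive endoderm and 13 of 19 neural genes carried SETD1A, near the 69.4% of all genes with H3K4me3. It was at 10 of 20 mesoderm and endoderm, 6 of 11 trophectoderm and 1 of 7 fibroblast genes. When the event was sought at the domain instead of within 1 kb of the start, these 5 counts were 10, 16, 13, 7 and 1. With a gene window of 2000 bp the primitive endoderm, neural, and mesoderm and endoderm lists lay above all genes, at 83.3%, 84.2% and 80.0% against 70.4%.

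**Figure D4:**
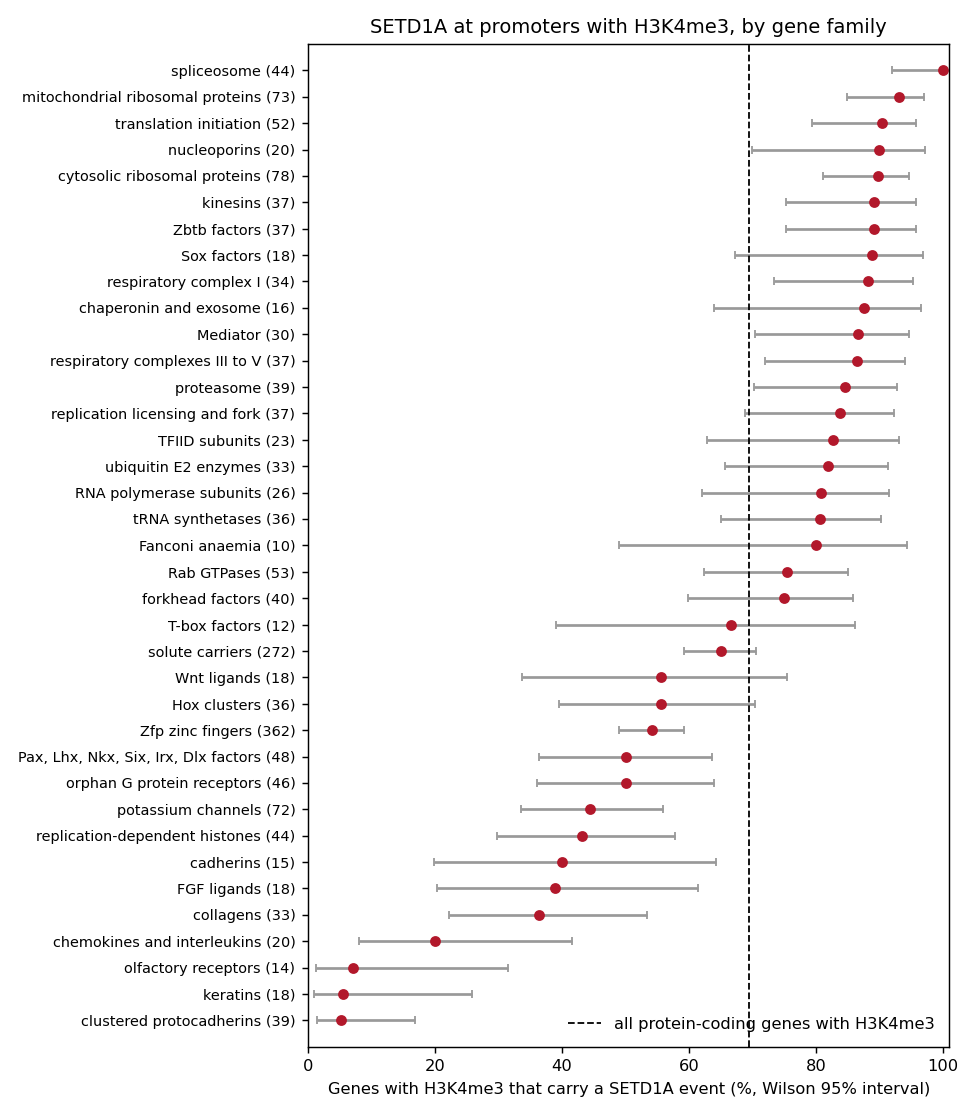
For each gene family, with its number of members with H3K4me3 in brackets, the point gives the percent of those members with a SETD1A event within 1 kb of the start and the bar its Wilson 95% interval. The dashed line marks all protein-coding genes with H3K4me3, at 69.4%. The spliceosome is at 100% and clustered protocadherins at 5.13%.

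The broadest domains with SETD1A were at Trim71, an RNA-binding ubiquitin ligase of stem cells (9.17 kb, 3 events), Malat1, an abundant nuclear long non-coding RNA (8.23 kb, 4 events), Mllt6 (8.04 kb, 7 events), Brd2, a bromodomain protein next to H2-DMa (7.85 kb), Sox2 (7.74 kb, 4 events), Tgif1 and Smad7, inhibitors of TGF-beta signalling (7.53 and 7.34 kb), and a stretch inside Esrrb (7.15 kb, 1 event). Brd2 stood out among them with 10 events, 2529.1 SETD1A reads and 17500 H3K4me3 reads, the most reads of any domain with SETD1A. The domain at Trim71 held 432.6 SETD1A reads and that of Smad7 271, so width alone did not order the events.

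Of the 8 broadest domains without SETD1A, 3 held tRNA clusters and 5 lay at protein-coding genes. The widest, chr11:48852780-48858550 in mm10 (5.77 kb), spans 4 tRNA genes and no protein-coding start. Chd2, a chromatin remodeller, followed with 5.55 kb and 6941 H3K4me3 reads, and then Pml, the organiser of nuclear bodies, with 4.51 kb, Tdgf1 with 4.39 kb, Myc with 4.24 kb and Vcan, a matrix proteoglycan, with 4.23 kb. The other two held tRNA clusters again. Of these, chr3:96499436-96503600 had 7959 H3K4me3 reads, the most of any domain without an event, and its nearest event was 54.7 kb away. The other, chr13:21166677-21170675, holds tRNA genes beside the long non-coding RNA gene Gm32298.

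By density the leading domains without an event, of at least 1 kb and at a gene start, were those of Gm51425 (2.53 reads per bp), Tars2, the mitochondrial threonyl-tRNA synthetase (2.29), Exosc2, a subunit of the RNA exosome (2.16), Arl5c with Plxdc1 (2.16), Ppp1r12b, a myosin phosphatase subunit (2.16), Vps39, a subunit of the HOPS tethering complex (2.11), Rnaseh2a, the catalytic subunit of ribonuclease H2 (2.08), Zfp960 (2.08), Akr1a1, an aldehyde reductase (2.04), and Acat2 (2.03). The domain of Arl5c and Plxdc1 also holds 2 tRNA genes, n-TCgca55 and n-TCgca54. All 10 exceed the upper quartile of density of domains with SETD1A, 1.61. They are 1.09 to 2.18 kb wide, and the nearest event lay 1.29 kb (Arl5c) to 190 kb (Gm51425) away. Gm51425 and Zfp960, both on chromosome 17, had 394 and 344 control reads. The others had between 99 (Vps39) and 206 (Arl5c with Plxdc1). The part of this higher background in the density of the 2 domains was not tested.

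Because tRNA clusters led these domains, tRNA genes were examined as a class, a choice made after the values were seen. RNA polymerase III transcribes them. There were 100 domains of at least 1 kb at tRNA genes and more than 1 kb from a protein-coding start, and 18 of them (18.0%, 11.7 to 26.7) carried SETD1A. Among the 2097 other broad domains away from protein-coding starts the share was 54.4% (52.3 to 56.5), and among 10425 at such starts without a tRNA gene 82.7%. The tRNA domains were not small, with a median of 1842 bp and 1.02 reads per bp, against 1322 bp and 0.700 for the other broad domains away from starts, and 1738 bp and 1.34 for those at starts. SIN3A lay near 95%, 97.5% and 99.2% of these 3 classes and H3K27ac near 76.0%, 64.4% and 80.7%. NELF lay near 63 of the 100 tRNA domains, 1972 of the 2097 other broad domains and 98.7% of those at starts, and POL2 5SP near 58.0%, 80.1% and 90.7% of the 3 classes. By gene, 247 of 408 tRNA genes had H3K4me3 within 500 bp, and 32 of those had a SETD1A event within 500 bp. Broad domains at other small RNA genes, likewise away from protein-coding starts, carried SETD1A in 14 of 15 cases with a snoRNA gene, 31 of 34 with a miRNA gene and 3 of 8 with an snRNA gene. The strongest tRNA domain with events was at n-TCgca52, with 330 SETD1A reads in 2 events.

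Promoters with SETD1A were rich in CpG. In windows of 300 bases the median CG count was 24 (quartiles 17 to 32) at 8067 promoters with H3K4me3 and SETD1A, 13 (8 to 20) at 3274 with H3K4me3 and no event within 1 kb, and 2 at 6151 without the mark. For genes with 1000 to 2000 bp of H3K4me3 the counts were 23 with SETD1A and 16 without. In 5 equal classes of CG count, from low to high, 34.2%, 64.2%, 78.1%, 86.4% and 92.7% of promoters with H3K4me3 carried SETD1A, and their median H3K4me3 widths were 1047.5, 1473.5, 1720, 1867.5 and 2120 bp, so CG count and width went up together.

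Of short motifs, the GC box GGGCGG was in 72.2% of promoters with SETD1A, 54.8% of those with H3K4me3 alone and 47.3% of all promoters. The ETS motif CCGGAAG was in 20.0%, 10.2% and 12.1%, the NRF1 core GCATGCGC in 6.19%, 2.35% and 3.62%, and the YY1 motif AAGATGGCG in 3.61%, 1.22% and 1.98%. Each of these 4 holds a CG, as do the CRE TGACGTCA (3.68%, 2.02% and 2.30%) and the E-box CACGTG (887 of 8067, 276 of 3274 and 1387 of 17492). Of motifs without one, CCAAT was in 35.6% with SETD1A, 43.2% with H3K4me3 alone and 38.8% of all, and TATAAA in 5.69%, 8.98% and 13.1%. The ZNF143 core ACTACAAT was in 0.955%, 0.947% and 0.863%. The 6 motifs that hold a CG were each more frequent with SETD1A than with H3K4me3 alone, and the part of CG content in this was not tested.

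Other factors of the series were compared at domains with and without SETD1A. Over all widths, an H3K27ac domain lay within 500 bp of 74.0% of domains with SETD1A and 31.1% without, and POL2 5SP of 86.4% and 42.2%. NELF events lay near 97.9% with SETD1A and 44.1% without, SIN3A near 97.9% and 51.9%. Since width separates the groups, the range of 1000 to 2000 bp is the closer comparison. There NELF was near 99.7% with SETD1A and 89.6% without, SIN3A near 99.7% and 95.4%, POL2 5SP near 89.1% and 74.9%, and H3K27ac near 76.0% and 62.1%. The zinc finger factor ZBTB11 was near 67.9% and 31.3%, CHD4 near 24.0% and 5.43%, and ZFP131 near 17.8% and 3.72%. H3K27me3, the Polycomb mark, was near 2301 of 6048 domains with SETD1A and 894 of 2579 (34.7%) without. The libraries behind the lists differ in depth, with 60.5 M reads for NELF, whose header names 1 library, 33.3 M for SIN3A, 28.9 M for CHD4, 26.2 M for ZBTB11 and 24 M for ZFP131, the last pair from the knockout lines with the tagged factor in +2i+LIF medium. Shares of different targets are therefore not set against each other.

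Split by the histone marks, domains of 1000 to 2000 bp carried SETD1A in 969 of 1139 cases with both H3K27ac and H3K27me3 (85.1%), 3626 of 5058 with H3K27ac alone (71.7%), 1332 of 2056 with H3K27me3 alone (64.8%) and 121 of 374 with neither (32.4%). The median density of H3K4me3 was 1.14, 1.35, 0.720 and 0.684 reads per bp in these 4 classes. In this range domains with both marks thus had the highest share with SETD1A at a lower density than those with H3K27ac alone. Over 2000 bp the shares lay closer, at 96.4% with both marks, 93.7% with H3K27ac alone and 88.4% with H3K27me3 alone. Only 19 domains of that width had neither mark, and 12 of them carried SETD1A.

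**Figure D5:**
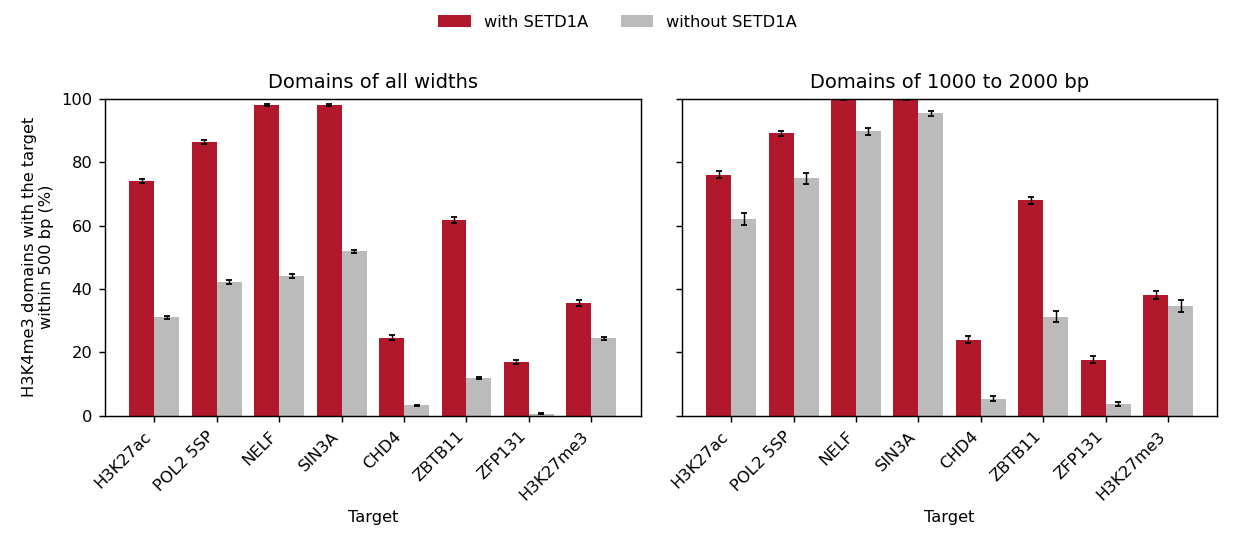
Bars give the percent of H3K4me3 domains with each target within 500 bp (y axis, from 0, Wilson 95% intervals), with SETD1A in red and without in grey, for all widths on the left and 1000 to 2000 bp on the right. NELF lies near 97.9% and 44.1% over all widths and near 99.7% and 89.6% in the narrower range. H3K27me3 lies near 34.7% without SETD1A in that range.

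A minority of 2119 events lay more than 500 bp from H3K4me3. They were weaker, with a median of 72.3 reads (quartiles 52.3 to 115.6) against 125 (83.3 to 199.5) for events near a domain, and a median log2 fold over control of 2.34 against 2.79. The share of events near a domain was 74.9% in the weakest of 5 equal classes of events by reads and 96.9% in the strongest. Of the events away from the mark, 1103 (52.1%) lay between genes, 902 (42.6%) inside genes and 77 (3.63%) at protein-coding starts. They had SIN3A within 500 bp in 57.5% of cases and NELF in 53.7%, against 98.7% and 98.1% of events near H3K4me3, and H3K27ac in 30.2% against 78.9%. ZBTB11 was near 7.83% of them, against 62.1%. The strongest lay at Tomm40 and Gm38955 with 621.6 reads over 14.9 of control, inside Esrrb with 581.6 over 156.6, and at Nsfl1c with 541.7 over 39.1.

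How the mark behaved at SETD1A sites when ZBTB11 or ZFP131 was lost was read from lists and from the authors' deposited tables of H3K4me3, in which a positive log2 fold change means higher in the knockout. Domains with SETD1A were listed again in each knockout more often than those without: 93.7% against 53.6% overlapped a Zbtb11KO domain, 94.7% against 55.0% a Zfp131KO domain and 96.3% against 66.2% a double knockout domain. From 1000 to 2000 bp at least 99.5% of either kind were listed again in each knockout.

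For Zbtb11KO the authors' deposited table called 6824 of 14315 regions with SETD1A higher (47.7%) and 2917 lower (20.4%) at an adjusted p under 0.05. Without SETD1A that deposited table of the authors called 3986 of 35877 higher (11.1%) and 3584 lower (9.99%). Over all tested regions of that table, 21.5% were called higher and 13% lower. The median over regions of the table's mean signal was 965 with SETD1A and 22.0 without, and its part in the calls was not tested. At 1000 to 2000 bp the authors' deposited table called 50.4% with SETD1A higher and 23.7% lower, against 23.5% higher and 30.4% lower without. Medians of the mean signal were 840 and 327 there. Over all regions of that width the authors' deposited table called 41.2% higher and 26.0% lower. For Zfp131KO the authors' deposited table called 4659 of 14451 regions with SETD1A higher (32.2%) and 521 lower (3.61%), against 4412 of 45763 higher (9.64%) and 6342 lower (13.9%) without, where 15.1% of all regions were called higher and 11.4% lower. At 1000 to 2000 bp that deposited table of the authors had 39.4% with SETD1A higher and 2.40% lower, against 17.7% and 7.91% without. Over all regions of that width the deposited table of the authors had 31.8% higher and 4.32% lower. Both tables share the wildtype libraries, their scaling is not stated, and their regions can overlap. Each knockout is 1 line, so an effect of the knockout and a difference between lines cannot be told apart.

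For H3K27ac, a mark of active promoters and enhancers, calls were fewer at SETD1A than elsewhere. Regions with SETD1A were called higher in Zbtb11KO in 1144 of 18075 cases (6.33%) and lower in 1758 (9.73%) in the authors' deposited table, against 8778 of 49927 higher (17.6%) and 6236 lower without, where 14.6% of all regions were called higher and 11.8% lower. In Zfp131KO the authors' deposited table had 8.24% higher and 10.5% lower with SETD1A, against 18.5% and 15.7% without, with 15.8% and 14.3% over all regions. The medians of the mean signal were 131 with SETD1A and 118 without in Zbtb11KO, closer than for H3K4me3.

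At the domains of the 10 events with the most reads, the authors' deposited table of Zbtb11KO called H3K4me3 higher at 7, lower at 2 and neither at 1. Over all tested regions that table called 21.5% higher and 13% lower, and over those with SETD1A 47.7% and 20.4%. The log2 fold change was 2.93 (SE 0.06, adjusted p listed as 0) at Ncl, 2.66 (SE 0.07, adjusted p = 7.65e-284) at Oga, 1.81 (SE 0.08, adjusted p = 4.84e-108) at Zfp335 and 1.11 (SE 0.10, adjusted p = 1.63e-25) at Kmt2a in the authors' deposited table. It was -0.62 (SE 0.11, adjusted p = 5.65e-08) at Tardbp and -0.79 (SE 0.15, adjusted p = 4.26e-07) at Cwc27 in the same deposited table of the authors. For Zfp131KO the deposited table of the authors called 5 of the 10 higher and 5 neither, with 0.55 (SE 0.16, adjusted p = 0.004) at Kmt2a and 0.42 (SE 0.08, adjusted p = 1.19e-05) at Zfp335. It called 15.1% of all tested regions higher and 11.4% lower, and of those with SETD1A 32.2% and 3.61%. Of the 10 dense domains without SETD1A, 9 were called lower in Zbtb11KO by the authors' deposited table, between -0.36 at Zfp960 and -1.15 at Tars2, and 1 lower and 2 higher in Zfp131KO. Those domains were chosen for their density in the wildtype libraries, which enter the same contrast, so nothing is read from this count. The same limit holds for the tRNA cluster and Tdgf1 below, which were named for wildtype H3K4me3 reads or width. The tRNA cluster with the most H3K4me3 reads, at n-TKctt16, had log2 fold changes of -1.06 (SE 0.11, adjusted p = 6.7e-22) in Zbtb11KO and -0.79 (SE 0.11, adjusted p = 1.41e-11) in Zfp131KO in the authors' deposited tables. Tdgf1 had 1.75 (SE 0.10, adjusted p = 1.4e-71) in Zbtb11KO and -1.11 (SE 1.18, adjusted p = 0.519) in Zfp131KO in those deposited tables of the authors, the first past the threshold and the second not.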

How the data were processed

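The submitters' processing notes list Bowtie 1.0.1, bedtools, DESeq2 1.28.1 and the build mm10. MultiGPS was run by the authors on the libraries of a group together to call binding events, per the file headers, which name 2 libraries for each group but NELF, with 1. The deposited events have a signal (reads assigned, not scaled for depth), control reads scaled by 0.443 and 0.415 for SETD1A, a log2 fold over control and, as a score, the p-value on a log2 scale. For histone marks and POL2 5SP the authors used DomainFinder (SEED) without the ENCODE blacklist, per the file headers, and deposited read counts for domains with p-values under 0.01. The authors' deposited DESeq2 tables give a log2 fold change, its standard error and an adjusted p-value for knockout over wildtype; 12069 of 62261 regions of H3K4me3 in Zbtb11KO have no adjusted p and were left out.

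Here distances, shares and medians were computed with Python 3.11.15, pandas 2.3.3 and scipy 1.17.1, after overlap functions were tested on simulated data. Contigs were left out. Gene starts came from the RefSeq promoter table (GRCm38.p6) for 17492 of 21887 protein-coding genes, and otherwise from the gene end with more H3K4me3 reads, which is the annotated side for 92.5% of 10888 genes. H3K4me3 width and reads of a gene sum its domains within 1 kb of the start. The NRF1 and ZNF143 motifs were searched as shorter cores than designed.

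The members, lists and alternatives were chosen with earlier results of these data known. Genes were named by rule: those at the 10 events with the most reads, the 10 densest domains without an event, the 8 widest domains of each kind, up to 2 members with the most SETD1A reads and up to 2 without an event per list, all H3K4 methyltransferase genes and the 5 highest and 5 lowest families. Others named were chosen after their values were seen. Alternatives changed the distance, event strength, domain filter and gene window.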

Additional observations from a re-analysis of the deposited data

Results flagged for a closer look

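SETD1A signal was also present on sequence that no comparison above used. On a contig assigned to chromosome 4 but not placed in it, the authors' list has an event of 1682.6 reads over 73.8 scaled control reads (log2 fold 4.69), which would rank among the highest of all events. A second event on the same contig had 1195.9 reads over 63 of control. Both lay within 500 bp of an H3K4me3 domain. The other 3 events on contigs had 98.2, 48.9 and 40.5 reads and no H3K4me3 domain within 500 bp.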

How the results depend on the processing

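No paired analysis was possible because each group was deposited as 1 list pooled over its libraries, and leaving out a library was not possible for the same reason. With events of at least the median reads, 7270 domains carried SETD1A, 9971 events lay near a domain and 10 of the 100 tRNA domains had an event. The ratio of median widths, 12.3, was 13.3 for events inside the domain, 9.99 for events within 1000 bp, 9.69 for events of at least the median reads, 10.9 for a log2 fold of at least 2, 10.9 for events near the domain midpoint, 4.79 for domains with p of at most 1e-05, 4.85 with near domains joined, 3.25 at protein-coding starts and 1.36 among domains of at least 1000 bp. The ratio of reads per bp, 3.99, was 4.29 for events inside the domain, 3.51 within 1000 bp, 4.97 for events of at least the median reads, 3.86 for the stricter p, 4.06 near the midpoint, 3.43 at protein-coding starts, 1.82 among domains of at least 1000 bp and 1.00 as the median of the ratios within 10 width classes. Both ratios thus shrink when narrow domains are left out, and in the 5 narrowest classes the second was below 1 (0.954 to 0.982). Under gene windows of 500 and 2000 bp, 104 of 112 list counts stayed within 1.5 times. The 8 others were Hox (13), Sox (9), T-box (5), histone (9), olfactory (0) and protocadherin (1) genes at 500 bp, and mesoderm and endoderm (16) and protocadherin (6) genes at 2000 bp. Of 53 lists with at least 10 members with H3K4me3, 5 changed side of the share of all genes at 500 bp. Pluripotency (53.6%), formative and primed (50.0%), forkhead (57.5%) and Sox (52.9%) genes were below it (65.7%), and primitive endoderm (70.0%) was above. At 2000 bp 3 did, the lineage lists given above.

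At an adjusted p under 0.01 in the authors' deposited tables, H3K4me3 regions in Zbtb11KO with SETD1A were higher in 6532 and lower in 2301 of 14315 cases. Those without SETD1A were higher in 2751 and lower in 1814 of 35877 cases. Over all 50192 tested regions 9283 were higher and 4115 lower. In Zfp131KO 3343 of 14451 with SETD1A were higher and 294 lower, and of 45763 without 2756 were higher and 3827 lower. Over all 60214 regions 6099 were higher and 4121 lower. H3K27ac regions in Zbtb11KO with SETD1A were higher in 684 and lower in 904 of 18075 cases, and without in 5661 and 3571 of 49927. Over all 68002 regions 6345 were higher and 4475 lower. In Zfp131KO the counts were 891 and 1065 of 18257 with SETD1A, and 5983 and 5000 of 50747 without. Over all 69004 regions they were 6874 and 6065. Depth limits absence: a domain without an event is one without a listed event of at least 40 reads.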
